A study of Mus musculus with 2 samples.

Results

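Endothelial barcodes with platelet RNA, called platelet-positive ECs from here on, were droplets of the lung sort in which transcripts of endothelium and of platelets were counted together. A barcode was taken as endothelial when it had 1000 to 5000 detected genes, under 20% of its counts from mitochondrial genes and at least 2 of the endothelial genes Cdh5, Cldn5 and Egfl7. It was taken as platelet-positive when at least 3 of the 7 platelet markers Pf4, Ppbp, Itga2b, Gp9, Nrgn, Treml1 and Clec1b were detected as well. Of 13600 barcodes past the gene and mitochondrial filters, 13209 were endothelial and 1058 of these were platelet-positive. The control library held 438 of them among 6946 endothelial barcodes, and the metastatic library 620 among 6263. Since the 10 genes of the rule chose these barcodes, the levels of those genes describe the choice and are not a result. All other genes were counted in the same barcodes, so they too are described and not tested.

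The lungs came from WT C57BL/6 mice 6 h after an injection into the tail vein. The control mice received PBS, and the metastatic mice received 200,000 B16-F10 cells each, a mouse skin melanoma line, labelled with CellTracker Green. The cells of 2 mice were pooled per library, each group was 1 library, and PECAM1-positive cells were sorted without a gate against the leukocyte protein PTPRC, after lysis of red blood cells. RNA was counted with the 10x method as unique molecular identifiers (UMIs), 1 per captured molecule, and the libraries held 67,929,614 and 64,733,724 UMIs. Cells of 1 library are not replicates, so no p-value was computed, and an effect of the tumor cells and a difference between the libraries cannot be told apart. Values are given for the control library first and the metastatic library second unless stated. Intervals in parentheses are exact 95% intervals and cover counting error only.

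Platelets are small fragments without a nucleus that megakaryocytes shed into the blood, partly within the lung circulation, and they carry RNA inherited from the megakaryocyte. They stick to the vessel wall through receptors for von Willebrand factor, collagen and fibrinogen, and they release granules of chemokines and clotting factors when activated. In the blood they are also known to bind to arriving tumor cells. Platelets carry PECAM1 on their surface, as endothelial cells do. Whether the platelet RNA of a barcode lay in the endothelial cell, on its surface or beside it in the droplet cannot be told apart from counts per barcode.

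The 7 markers cover the chief functions of the platelet. Pf4 and Ppbp encode chemokines of the alpha granule, Itga2b and Gp9 encode subunits of the fibrinogen and von Willebrand factor receptors, and Clec1b encodes the receptor for podoplanin. Treml1 encodes a receptor stored in the granules, and Nrgn a calmodulin-binding protein. The promoters of 4 markers are shown as the 250 bases before the RefSeq start site on the strand of the gene (GRCm38.p6). That the markers occur together in these barcodes follows from the rule and is not a result. Capitals mark matches to the letters searched on both strands. Pf4 lies at chr5:90772435-90773383 on the plus strand (promoter chr5:90772185-90772434) and Ppbp at chr5:90768518-90770063 on the plus strand (promoter chr5:90768268-90768517). Itga2b lies at chr11:102453297-102470122 on the minus strand, as GENCODE gives the gene, and its promoter (chr11:102469884-102470133) precedes the RefSeq start site, which lies inside the GENCODE gene. Clec1b lies at chr6:129397297-129409335 on the plus strand (promoter chr6:129397047-129397296).
Pf4: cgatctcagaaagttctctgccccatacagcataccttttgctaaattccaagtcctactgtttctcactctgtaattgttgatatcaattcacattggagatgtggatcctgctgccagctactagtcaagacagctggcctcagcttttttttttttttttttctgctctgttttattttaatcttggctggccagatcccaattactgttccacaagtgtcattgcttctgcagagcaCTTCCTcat
Ppbp: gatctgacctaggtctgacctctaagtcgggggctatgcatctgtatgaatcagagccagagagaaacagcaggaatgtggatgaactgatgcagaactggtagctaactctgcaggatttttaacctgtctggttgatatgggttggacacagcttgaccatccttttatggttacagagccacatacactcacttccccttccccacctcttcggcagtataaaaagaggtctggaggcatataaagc
Itga2b: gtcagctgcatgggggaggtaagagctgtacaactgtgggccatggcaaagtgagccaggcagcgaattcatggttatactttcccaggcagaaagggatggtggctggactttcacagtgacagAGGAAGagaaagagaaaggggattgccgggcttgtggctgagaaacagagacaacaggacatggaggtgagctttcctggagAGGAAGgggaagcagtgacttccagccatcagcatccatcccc
Clec1b: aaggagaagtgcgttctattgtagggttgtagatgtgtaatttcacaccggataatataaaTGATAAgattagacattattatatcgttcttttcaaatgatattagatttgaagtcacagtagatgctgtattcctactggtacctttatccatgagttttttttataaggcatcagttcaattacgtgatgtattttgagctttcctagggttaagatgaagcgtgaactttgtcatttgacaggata

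The letters searched for GATA factors were AGATAA or AGATAG, and also TGATAA or TGATAG. For ETS factors they were AGGAAG, with CGGAAG beside it. All 7 markers had a promoter in the RefSeq table. The GATA letters were found in 1 of them (Clec1b, TGATAA from -189 to -184 relative to the start site), and the ETS letters in 3. These were Pf4 (AGGAAG on the opposite strand, -9 to -4), Itga2b (AGGAAG at -125 to -120 and again at -43 to -38) and Gp9 (AGGAAG on the opposite strand, -16 to -11). Ppbp, Nrgn and Treml1 had neither within the 250 bases. Among 32851 promoters of this length, 26.5% held the GATA letters, 39.2% the ETS letters and 9.21% both. A match describes the sequence and is no evidence of a bound site.

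Platelet-positive ECs made up 6.31% (5.75–6.90) of endothelial barcodes in the control and 9.90% (9.17–10.7) in the metastatic library, a ratio of 1.57 (1.39–1.78). A deeper barcode has more chance to show 3 markers, and the platelet-positive ECs had medians of 6912 and 6913.5 UMIs against 6259 and 6507 in the other endothelial barcodes. The median share of mitochondrial UMIs was 2.92% and 2.94% in platelet-positive ECs and 2.69% in the other endothelial barcodes of either library. When each barcode was thinned at random to 2000 UMIs, 186 of 6680 control (2.78%, 2.40–3.21) and 312 of 5995 metastatic endothelial barcodes (5.20%, 4.66–5.80) had 3 markers, a ratio of 1.87 (1.55–2.25). Of all barcodes, 109 and 107 were too shallow to be thinned. The share was thus higher in the metastatic library at both depths, by more than the counting error.

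The number of platelet markers per endothelial barcode was graded. In the control library 5303 endothelial barcodes had none of the 7 markers, 974 had 1 and 231 had 2. Inside the rule, 150 had 3 markers, 90 had 4, 64 had 5, 49 had 6 and 85 had all 7. The metastatic numbers were 4334, 1019 and 290 outside the rule, and 176, 130, 108, 87 and 119 inside it. From 1 marker upward the metastatic library had the higher share at every number, with ratios from 1.16 (1.06–1.27) at 1 marker to 1.97 (1.37–2.85) at 6, and at 0 markers it had the lower share, with a ratio of 0.906 (0.871–0.944). More barcodes had all 7 markers than had 6 in both libraries.

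**Figure D1:**
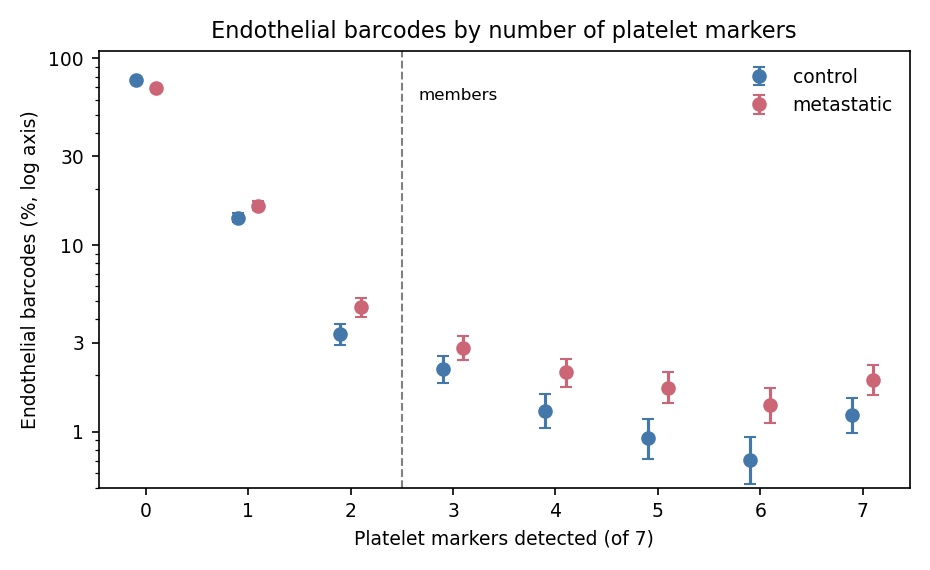
Share of endothelial barcodes (percent, log axis) by the number of platelet markers detected, from 0 to 7, in the control and metastatic libraries. Points are shares with exact 95% counting intervals, and barcodes to the right of the dashed line are the members, that is the platelet-positive ECs. The metastatic points lie above the control points from 1 marker upward, and both series rise again from 6 to 7 markers.

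The amount of platelet RNA per barcode was uneven. The median was 10 marker UMIs per platelet-positive EC in the control and 12 in the metastatic library, whereas the highest barcodes held 368 and 548. The 44 control and 62 metastatic barcodes with the most marker UMIs, 10% of each group, held 50.8% and 50.2% of the 10518 and 16192 marker UMIs. The 7 markers gave 0.322% and 0.353% of all UMIs of the platelet-positive ECs, against 5.26% and 5.23% in platelet barcodes. These platelet barcodes were droplets with at least 200 UMIs, at least 3 of the 7 platelet markers and none of the 3 endothelial genes. They numbered 397 and 762. This definition set no upper limit on UMIs and left out no other cell class, so whole cells can be among them. Their median depths were 477 and 456.5 UMIs, but the deepest held 9998 and 13536. Epithelial genes summed to 1366 and 4906 CPM (counts per 1e+06 UMIs) in them. How far such deep barcodes weigh on sums over platelet barcodes was not tested.

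Some of the platelet-richest barcodes held very little endothelial RNA. The top control barcode had 368 platelet marker UMIs but 3 UMIs of Cdh5, Cldn5 and Egfl7 together, while the top metastatic barcode had 548 and 22, and the next one 471 and 53. At most 5 UMIs of the 3 endothelial genes were found in 25 control (5.71%, 3.73–8.31) and 32 metastatic platelet-positive ECs (5.16%, 3.56–7.21). In the other endothelial barcodes this share was 2.66% (2.28–3.08) and 2.76% (2.35–3.23). These few barcodes carried 23.2% of the marker UMIs of the control and 13.2% of those of the metastatic platelet-positive ECs. The median over all platelet-positive ECs was 31 and 32 endothelial UMIs, close to the 30 and 32 of other endothelial barcodes.

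As chosen by the rule, the markers differed in how often they were seen. Pf4 was detected in 92.9% and 93.5% of platelet-positive ECs, against 6.71% and 9.37% of other endothelial barcodes, and Nrgn in 92.7% and 93.7%. Ppbp was detected in 73.3% and 77.7%, Clec1b in 60.7% and 62.4%, Gp9 in 57.5% and 57.3% and Itga2b in 46.1% and 49.7%. Treml1 was the least often seen, in 37.7% and 40.3%, against 0.476% and 0.425% of the others. Levels are given as counts per 1e+06 UMIs of the barcodes summed (CPM), and since each UMI tags the end of a transcript they are not divided by gene length. Pf4 stood at 948 and 1125 CPM in platelet-positive ECs, 15.2 and 19.8 CPM in other endothelial barcodes and 15196 and 16149.5 CPM in platelet barcodes. Platelet-positive ECs lay between the other endothelial barcodes and the platelet barcodes for each of the 7 markers in both libraries.

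The edge of the rule was read by setting barcodes with 2 markers beside those with 3. Endothelial barcodes with 2 markers, just outside, held a median of 3 marker UMIs in both libraries, and those with 3 markers, just inside, held 5 and 6. Tubb1, the tubulin of the platelet's marginal band and no part of the rule, stood at 1.12 and 1.35 CPM with 2 markers and at 6.30 and 3.77 CPM with 3. These levels rest on 2 and 3 UMIs, and on 7 and 5 UMIs, too few to show a step or its absence. Rgs18, a regulator of platelet G proteins, stood at 5.59 and 7.20 CPM with 2 markers and at 14.4 and 15.1 CPM with 3.

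Platelet genes that the rule did not use numbered 37. Of these, 35 were higher in platelet-positive ECs than in other endothelial barcodes of the control and 36 in the metastatic library, with median log2 ratios of 4.36 and 4.37. Over all genes tested the medians were -0.03 and -0.04. Of the 37, 17 passed the filter on low values in each library (at least 50 CPM in either group and 20 UMIs in all), and 11 of the 17 were more than 2-fold higher in each. Among all genes past that filter, 1.48% of 3793 were that much higher in the control and 1.39% of 3809 in the metastatic library. Genes low in endothelium passed the filter through the platelet-positive ECs alone, so the count of 11 was bound to be high.

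**Figure D2:**
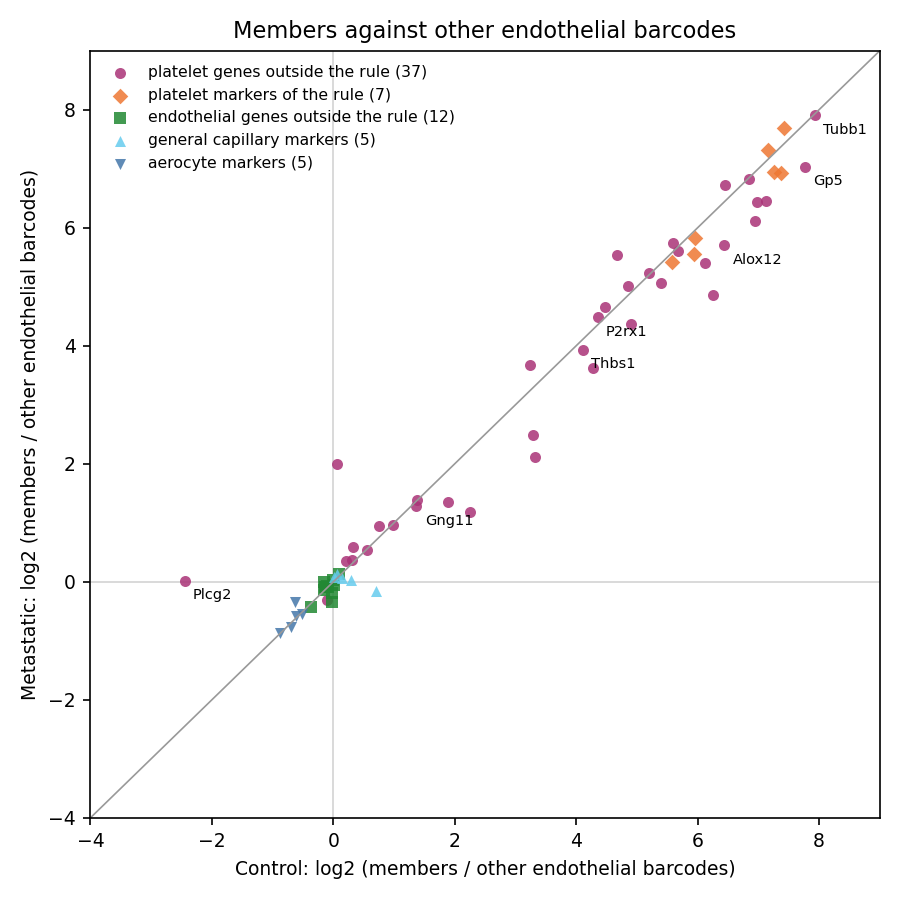
Log2 ratio of platelet-positive ECs (members) to other endothelial barcodes, control on the horizontal and metastatic on the vertical axis, 1 point per gene with UMIs in both kinds of barcode. The grey diagonal marks equal ratios. Platelet genes reach 7.93 and 7.91 (Tubb1), the 12 endothelial genes lie near 0, and Plcg2, at 1 UMI in the control platelet-positive ECs, stands apart.

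Receptors with which platelets bind the vessel wall and sense agonists showed large ratios, with medians of 5.97 and 5.57 over 12 genes. Gp5, a subunit of the von Willebrand factor receptor, stood at 68.8 and 72.9 CPM in platelet-positive ECs and 0.316 and 0.554 CPM in other endothelial barcodes, log2 ratios of 7.77 (6.99–8.66) and 7.04 (6.42–7.73). It was detected in 24.7% and 24.8% of platelet-positive ECs and in 0.215% and 0.372% of the others. Gp6, the collagen receptor, stood at 39.2 and 38.4 CPM against 0.316 and 0.554 CPM. These receptors bring platelets to a stop on an injured vessel. P2ry12, an ADP receptor and the target of clopidogrel, stood at 24.2 and 25.7 CPM against 0.316 and 0.882 CPM. Itgb3, the partner of Itga2b and also an endothelial integrin, had log2 ratios of 3.23 (2.97–3.49) and 3.67 (3.42–3.93). Transcripts of Gp5, Gp6 and P2ry12 were thus below 1 CPM in other endothelial barcodes and well above it in platelet-positive ECs of both libraries. The thromboxane receptor Tbxa2r did not follow, at 9.79 and 9.82 CPM against 10.5 and 12.2 CPM, and it stood at 9.71 and 7.33 CPM in platelet barcodes. F2rl3, a thrombin receptor, had 1 and 6 UMIs in platelet-positive ECs, too few to place. The other receptors of the list, Gp1ba, Gp1bb, P2rx1, F2rl2 and Cd226, had log2 ratios from 4.36 (P2rx1, control) to 7.12 (F2rl2, control).

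Granule and clotting genes were split by how much of them endothelium held. F5, coagulation factor V, stood at 62.4 and 61.3 CPM in platelet-positive ECs against 0.497 and 0.706 CPM in other endothelial barcodes, log2 ratios of 6.97 (6.33–7.68) and 6.44 (5.88–7.06). Thbs1, the granule glycoprotein thrombospondin, was detected in 36.5% and 35.8% of platelet-positive ECs and in 3.35% and 4.80% of the others, with log2 ratios of 4.11 (3.90–4.32) and 3.94 (3.75–4.12). F13a1, the subunit of factor XIII that stabilizes clots, had log2 ratios of 5.60 and 5.74, Mmrn1, a granule carrier of factor V, of 3.31 and 2.11, and Serpine2, a thrombin inhibitor, of 1.38 and 1.39. By contrast, Srgn, the proteoglycan that packs granules, stood at 675 and 734 CPM against 545 and 567 CPM, log2 ratios of 0.31 (0.24–0.37) and 0.37 (0.32–0.42). Tgfb1, a growth factor stored in platelets, had log2 ratios of 0.32 (0.16–0.47) and 0.59 (0.48–0.70), and Clu, clusterin, of 0.55 (0.45–0.64) and 0.54 (0.46–0.62). Srgn, Tgfb1 and Clu, with the smallest ratios, were also the 3 most abundant of the 8 granule genes in other endothelial barcodes.

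Signaling and cytoskeletal genes differed widely among themselves. Plek, the pleckstrin substrate of protein kinase C, was detected in 50.7% and 54.5% of platelet-positive ECs against 2.77% and 3.03% of the others, with log2 ratios of 5.20 and 5.24. Fermt3, the kindlin that activates integrins in blood cells, had log2 ratios of 4.47 (4.26–4.68) and 4.66 (4.46–4.87). Bin2, an adaptor of blood cells, had log2 ratios of 4.90 and 4.37, and Lat, the scaffold below the collagen receptor, of 4.27 and 3.63. Both Plek and Fermt3 act downstream of platelet receptors. Gng11, a G protein subunit that was frequent in endothelium too, stood at 993 and 1122 CPM against 384 and 460.1 CPM, and Rasgrp2, which switches on the integrin of the platelet, at 166 and 142 CPM against 98.9 and 74.1 CPM. Plcg2 had 1 and 11 UMIs in platelet-positive ECs and log2 ratios of -2.45 (-7.77–0.07) and 0.02 (-1.03–0.92), Btk had 14 and 15 UMIs and Lcp2 13 and 11.

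Among cytoskeletal genes and enzymes, Tubb1 stood at 44 and 42.5 CPM against 0.181 and 0.176 CPM, log2 ratios of 7.93 (6.91–9.17) and 7.91 (6.84–9.25), the highest of the 37 in both libraries. Alox12, platelet 12-lipoxygenase, was detected in 38.1% and 43.1% against 1.28% and 1.93%, with log2 ratios of 6.44 (6.11–6.79) and 5.71 (5.44–5.99). Myl9, a myosin light chain, had log2 ratios of 5.41 and 5.06. These are genes of platelet shape and lipid signaling. Tpm4, a tropomyosin, stood at 550.3 and 596 CPM against 278 and 305 CPM, and Ptgs1, cyclooxygenase 1 and the target of aspirin, at 321 and 233 CPM against 277 and 183 CPM. Tbxas1, thromboxane synthase, had log2 ratios of 3.29 and 2.48. Tuba8, a tubulin, had 15 and 15 UMIs.

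Summed over the 37 genes, the level was higher the more markers a barcode had, from 3 markers upward. It was 1965 and 1976 CPM at 0 markers, 2566 and 2531 CPM at 3 markers, and 11602 and 11753 CPM at 7 markers. The sum of 12 endothelial genes outside the rule went from 9938 and 10561 CPM at 0 markers to 8255 and 8836 CPM at 7. Platelet barcodes held 44647 and 42493 CPM of the 37 genes. Taken as the excess over endothelial barcodes with 0 markers, the level in all platelet-positive ECs was 6.52% and 7.40% of that in platelet barcodes. In those with all 7 markers it was 22.6% and 24.1%. Any whole cells among the platelet barcodes enter these percentages. Single genes gave similar values, with Tubb1 at 7.42% and 6.52% and Alox12 at 6.29% and 7.62% over all platelet-positive ECs.

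**Figure D3:**
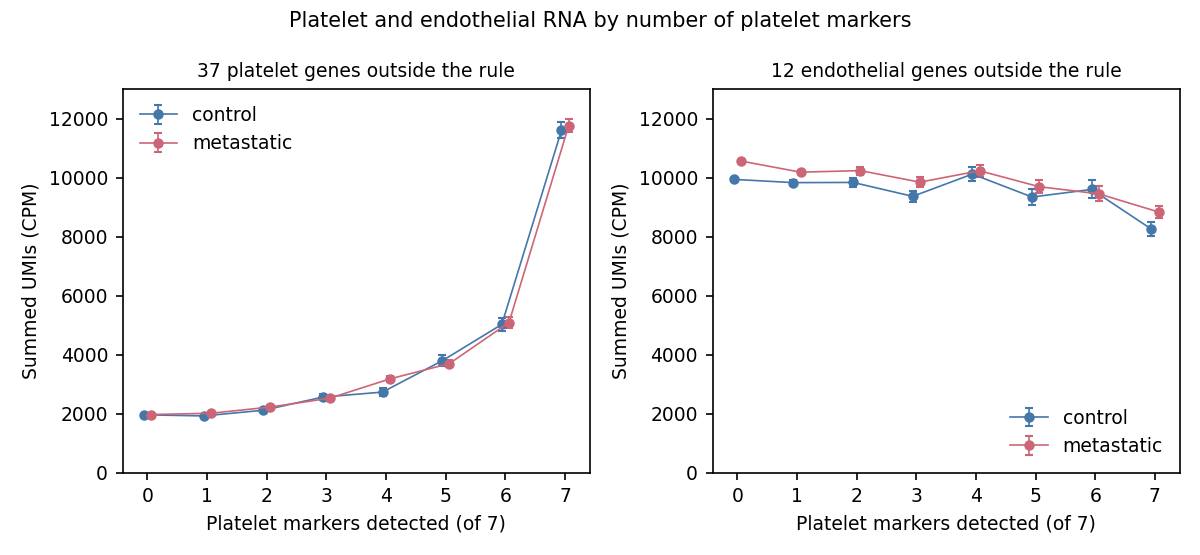
Summed CPM of the 37 platelet genes outside the rule (left) and of the 12 endothelial genes outside the rule (right) against the number of platelet markers, in both libraries, with exact 95% Poisson intervals. The platelet sum reaches 11602 and 11753 CPM at 7 markers, where the endothelial sum is 8255 and 8836 CPM.

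The mix of platelet transcripts was set beside that of the platelet barcodes of the same library. Of the UMIs of the 7 markers, Pf4 gave 29.5% (28.6–30.3) in control platelet-positive ECs and 28.9% (28.2–29.6) in control platelet barcodes. In the metastatic library its shares were 31.8% (31.1–32.6) and 30.9% (30.4–31.4). Nrgn gave 24.5% and 24.4% in the control, and 25.1% and 26.3% in the metastatic barcodes. Ppbp was lower in platelet-positive ECs, at 18.5% (17.7–19.2) against 21.6% (20.9–22.2) and, in the metastatic library, at 17.8% (17.2–18.4) against 19.7% (19.2–20.2). Clec1b was higher in the control, at 12% (11.4–12.6) against 10.3% (9.83–10.8), and near equal in the metastatic library, at 9.73% and 9.58%. Itga2b was higher in the metastatic library, at 5.72% (5.37–6.09) against 4.32% (4.09–4.57). Since the rule chose both kinds of barcode by these 7 markers, it also shapes their shares, which are a description and support nothing.

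**Figure D4:**
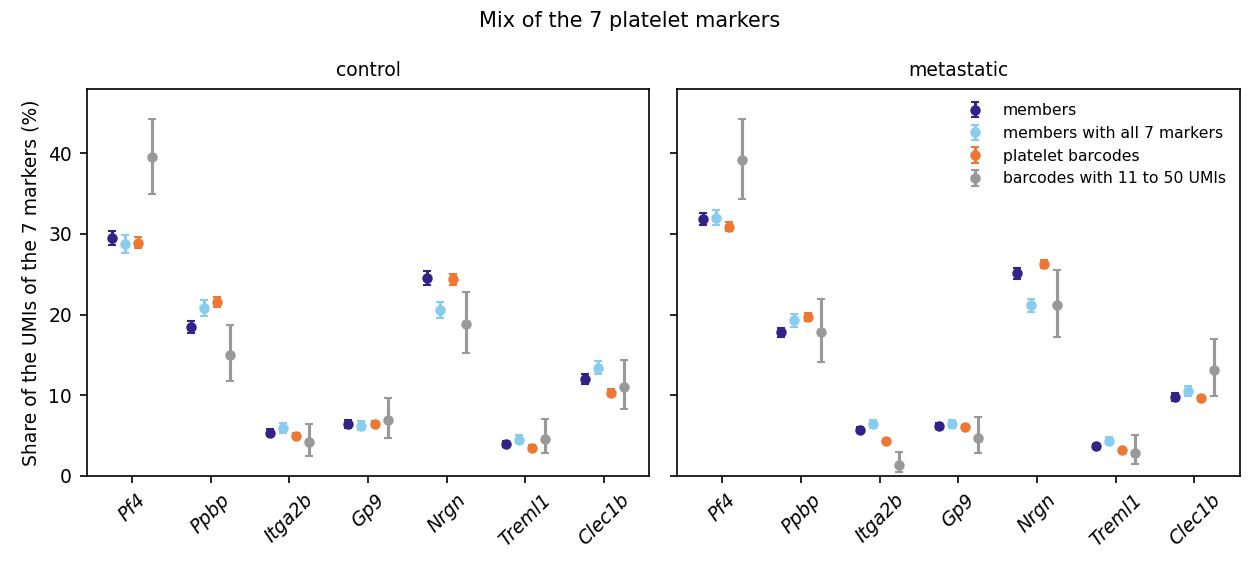
Share of the UMIs of the 7 rule markers given by each gene (percent, exact 95% intervals), in members (platelet-positive ECs), members with all 7 markers, platelet barcodes and droplets of 11 to 50 UMIs, with a panel per library. Pf4 gives 29.5% and 31.8% in members, and 39.5% and 39.2% in the droplets of 11 to 50 UMIs. The rule used these markers, so the shares are a description.

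RNA that floats free in the suspension was read in droplets with 11 to 50 UMIs. There Pf4 gave 39.5% (34.9–44.3) and 39.2% (34.3–44.2) of the marker UMIs. In endothelial barcodes with 2 markers, outside the rule, its share was 39.9% (36.3–43.5) and 39.1% (36.0–42.2). Because platelet-positive ECs had to show 3 different markers, nothing is read from the lower Pf4 share in them. Among 8 platelet genes that the rule did not use, Alox12 gave 38.5% (36–41.1) in control platelet-positive ECs and 40.4% (38.2–42.6) in platelet barcodes, and 39.7% (37.5–41.9) and 37.2% (35.5–38.9) in the metastatic library. Gp5 gave 15.9% and 17.2%, and then 17.4% and 16.5%. In lymphoid barcodes, which should lack platelet transcripts, 3 platelet markers were found in 1 of 40 control (2.5%, 0.0633–13.2) and 2 of 42 metastatic barcodes (4.76%, 0.582–16.2), at median depths of 4696.5 and 4585 UMIs. With the lymphoid class called anew on counts thinned to 2000 UMIs, the numbers were 0 of 53 (0–6.72) and 3 of 63 (4.76%, 0.993–13.3). The thinned sets are thus not the same barcodes as those at full depth. With so few lymphoid barcodes the intervals overlap the endothelial shares, so an excess of endothelial over lymphoid barcodes was not detectable at this number. As an upper limit, all UMIs of the club cell transcript Scgb1a1 in platelet-positive ECs were taken as free RNA. This gave a free share of at most 60.7% and 41.8% of their UMIs, and the true share was not tested. The free profile was subtracted at that limit from platelet-positive ECs only. Of the 37 platelet genes, 34 and 35 then stayed above 0 in platelet-positive ECs. Their median log2 ratios to other endothelial barcodes were 4.12 and 4.36, which leave out the 3 and 2 genes that fell to 0 or below.

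Beyond the lists, 49 genes were more than 2-fold higher in platelet-positive ECs in both libraries, of 3666 tested in both. They included the 7 rule markers and 18 genes in all from the lists. All 49 were also more than 2-fold higher in the platelet barcodes of both libraries, where 15.5% and 13.8% of the genes tested were. Nothing is read from that count, since the 7 markers chose both kinds of barcode and others, such as Gp5 and F5, passed the filter on low values only through the platelet-positive ECs. Prkar2b, a regulatory subunit of protein kinase A, led the genes outside the lists with 110.1 and 108 CPM against 1.88 and 1.92 CPM, log2 ratios of 5.88 (5.53–6.24) and 5.82 (5.47–6.19). Stx11, a syntaxin needed for platelet secretion, had log2 ratios of 4.80 and 3.75. Rgs10, a G protein regulator, had 4.51 and 4.44, and Tpm2, a tropomyosin, 4.47 and 4.30. The remaining 8 of the 12 highest were Hacd4, Tuba4a, Fcer1g (the Fc receptor chain that pairs with Gp6), Alox5ap, Zyx, Mmd, Cnn2 and 1810058I24Rik. Their log2 ratios ran from 2.09 (Cnn2, metastatic) to 3.39 (Hacd4, control). In platelet barcodes Prkar2b stood at 1609 and 1431 CPM and Rgs10 at 3467 and 3060.2 CPM.

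Genes of the megakaryocyte nucleus were read separately, because platelets lack a nucleus while megakaryocytes do not. Nfe2, the factor that drives platelet release, stood at 29.7 and 22.3 CPM in platelet-positive ECs against 0.791 and 0.907 CPM, and it was detected in 9.36% and 9.35% of them. Gata1, the master factor of the lineage, stood at 9.18 and 5.67 CPM against 0.0226 and 0.0504 CPM and was detected in 4.79% and 3.06%. Gfi1b, a repressor of the same lineage, had 5 and 14 UMIs against 0 in the other endothelial barcodes of both libraries. These transcripts were present in platelet barcodes too, Gata1 at 90.6 and 77 CPM and Nfe2 at 440.2 and 403 CPM. Tal1, Zfpm1 and Meis1, which were also present in other endothelial barcodes, had log2 ratios from -0.15 (Meis1, metastatic) to 0.33 (Zfpm1, control). Runx1 had 10 and 51 UMIs, of which 40.0% and 45.1% came from 3 barcodes, and Hemgn had 0 and 1. Of the 8 genes 3 passed the filter on low values in each library, and 0 of the 3 were more than 2-fold higher, against 1.48% and 1.39% of all genes tested, so that the count says nothing about the list. The nuclear RNA Malat1 had log2 ratios of -0.25 (-0.26–-0.24) and -0.16 (-0.16–-0.15) in platelet-positive ECs, and it stood at 3033 and 4046 CPM in platelet barcodes against 44276 and 43711 CPM in other endothelial barcodes.

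The endothelial genes were nearly as high in platelet-positive ECs as in the others. The 12 endothelial genes outside the rule summed to 9344 and 9655 CPM against 9917 and 10469.5 CPM in other endothelial barcodes, log2 ratios of -0.09 (-0.10–-0.07) and -0.12 (-0.13–-0.10). None of the 12 was more than 2-fold higher or lower in either library. Of all genes tested 1.48% and 1.39% were that much higher and 0.158% and 0.21% lower. The count thus says nothing about the list. Pecam1 itself had log2 ratios of -0.12 and -0.09, and Flt1, a VEGF receptor, of 0.00 and 0.04. Kdr, the main VEGF receptor, was the furthest below, at 361 and 441 CPM against 464 and 594 CPM, or -0.36 (-0.45–-0.28) and -0.43 (-0.50–-0.36). Emcn, the sialomucin endomucin, had log2 ratios of -0.02 (-0.14–0.09) and -0.34 (-0.45–-0.23), so that its lower level was seen in the metastatic library alone. Erg, an endothelial transcription factor, was at 0.09 (-0.09–0.27) and 0.12 (-0.03–0.27). The barcodes thus carried platelet genes beside an endothelial profile that was lower by little.

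Genes outside the lists were also ranked from the low end, and the 6 lowest follow. Sftpa1, a surfactant protein of alveolar epithelium, stood at 7.95 and 9.60 CPM in platelet-positive ECs against 141 and 152 CPM in other endothelial barcodes. Sftpa1 was detected in similar shares of both, 5.94% and 6.45% against 7.79% and 6.33%, and 3 of the other barcodes held 31.6% and 35.1% of its UMIs there. Fabp4, a fatty acid binding protein, had log2 ratios of -3.81 and -2.03 with detection in 3.65% and 8.87% against 4.46% and 8.86%. Mgp, a calcification inhibitor, had -2.87 and -0.84, and in the metastatic platelet-positive ECs 3 barcodes held 55.2% of its UMIs. Sums of these 3 genes thus turned on a few barcodes. Igfbp7, a secreted growth factor binding protein, stood at 999 and 907 CPM against 1609 and 1409.8 CPM, log2 ratios of -0.69 (-0.74–-0.64) and -0.64 (-0.68–-0.59). AW112010 and Ccdc68 completed the 6, with log2 ratios of -0.68 and -0.55, and of -0.52 and -0.58.

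Endothelial barcodes were placed in the class with the most detected markers, of which at least 2 of 5 were required. General capillary (gCap) cells renew the capillary bed, and aerocytes (aCap) line the thin gas exchange surface. Among gCap barcodes 326 of 4607 control (7.08%, 6.35–7.86) and 445 of 4248 metastatic barcodes (10.5%, 9.57–11.4) were platelet-positive. Among aCap barcodes it was 49 of 1092 (4.49%, 3.34–5.89) and 56 of 832 (6.73%, 5.12–8.65). The aCap share was thus 0.634 (0.460–0.858) and 0.643 (0.478–0.850) times the gCap share, a difference larger than the counting error in both libraries. After thinning to 2000 UMIs the ratio was 0.601 (0.345–0.987) in the control but 0.719 (0.466–1.07) in the metastatic library, an interval that reached 1.

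Venous barcodes had the lowest share by value, with 3 of 277 control (1.08%, 0.224–3.13) and 17 of 313 metastatic barcodes (5.43%, 3.20–8.55). These intervals overlapped those of arterial and lymphatic barcodes in both libraries, and that of aCap in the metastatic library. Relative to gCap the venous share was 0.153 (0.0314–0.451) and 0.518 (0.299–0.840), and after thinning 0.264 (0.0317–0.974) and 0.589 (0.251–1.18). Arterial barcodes gave 4 of 134 (2.99%, 0.819–7.47) and 8 of 115 (6.96%, 3.05–13.2), and lymphatic barcodes 1 of 10 and 1 of 17. Barcodes without a class gave 55 of 826 (6.66%, 5.06–8.58) and 93 of 738 (12.6%, 10.3–15.2). The ratio of the metastatic to the control share was 1.48 (1.28–1.71) in gCap, 1.5 (1.00–2.25) in aCap and 2.33 (0.624–10.6) in arteries. For veins it was 5.01 (1.45–26.7), resting on 3 control barcodes. After thinning it was 3.79 (0.756–36.6), from 2 of 250 control and 8 of 264 metastatic barcodes. A difference between libraries was thus not detectable in veins after thinning. All classes were called anew on the thinned counts, so they are not the same barcodes as at full depth. With thinned classes but the rule applied at full depth, 4 of 250 and 16 of 264 venous barcodes were platelet-positive.

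**Figure D5:**
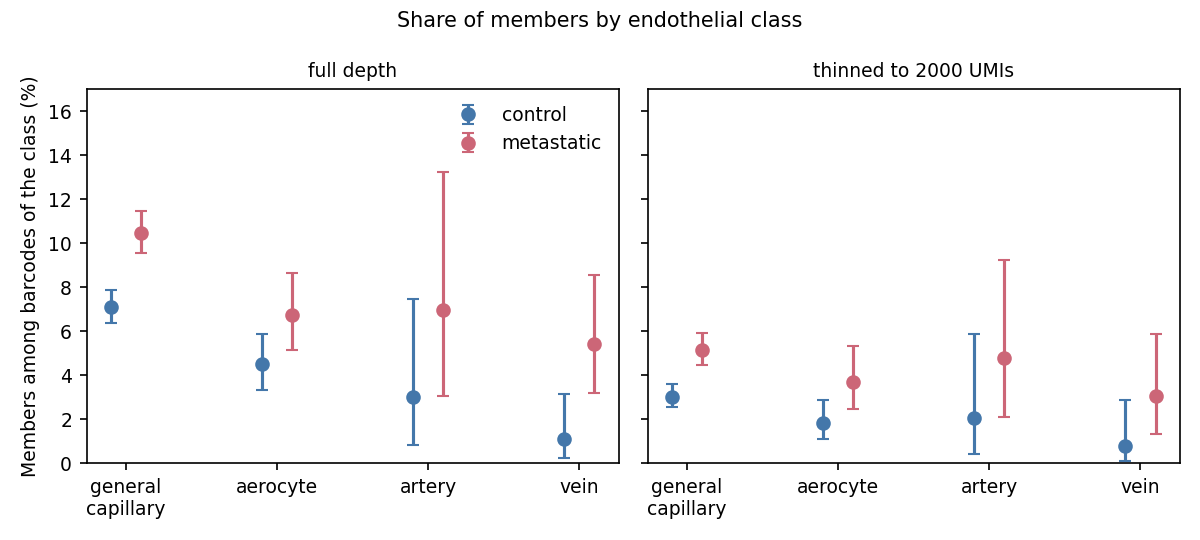
Share of the endothelial barcodes of each class that were members, that is platelet-positive (percent, exact 95% intervals), at full depth (left) and after thinning to 2000 UMIs (right), in both libraries. General capillary barcodes stand at 7.08% and 10.5% at full depth, above aerocytes at 4.49% and 6.73% and veins at 1.08% and 5.43%.

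Class marker levels followed these shares, as the class calls use the same genes. The 5 aCap markers summed to log2 ratios of -0.67 (-0.72–-0.61) and -0.66 (-0.71–-0.60) in platelet-positive ECs against other endothelial barcodes. Fibin stood at 202 and 124 CPM against 369.5 and 227 CPM, and Ednrb, an endothelin receptor that marks aerocytes, at 177 and 135 CPM against 285 and 230.3 CPM. The gCap markers summed to 0.07 (0.04–0.10) and 0.08 (0.06–0.11), with Kit, a receptor of stem cell factor, at 498 and 607 CPM against 480.1 and 556 CPM. Vein markers summed to -1.06 (-1.18–-0.94) and -0.77 (-0.86–-0.68), and Slc6a2, a noradrenaline transporter of lung veins, stood at 37 and 67.2 CPM against 114 and 116 CPM. Artery markers summed to -0.18 (-0.26–-0.11) and -0.10 (-0.16–-0.04).

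Markers of other cells were read in the same barcodes. Of the 5 pan-leukocyte genes Laptm5, a lysosomal protein of blood cells, was higher, at 63 and 69.8 CPM against 12.2 and 12.9 CPM, log2 ratios of 2.36 (2.12–2.60) and 2.44 (2.24–2.65), and it stood at 906 and 867 CPM in platelet barcodes. Ptprc stood at 4.28 and 13.3 CPM against 10.7 and 15.4 CPM, and Cd52, Coro1a and Cd53 were likewise no higher in either library. The 5 genes summed to 80.1 and 99.7 CPM against 45.2 and 65.4 CPM, while their median log2 ratio was below 0, at -1.07 and -0.21. Barcodes with at least 2 of the 5 genes made up 2.97% (1.59–5.02) and 3.39% (2.11–5.13) of platelet-positive ECs against 0.922% (0.704–1.19) and 1.38% (1.09–1.72) of the others. In platelet barcodes they made up 3.27% and 2.62%.

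Lyz2, the lysozyme of myeloid cells, was detected in 59.4% and 64.8% of platelet-positive ECs and in 16.3% and 14% of other endothelial barcodes. In sums it differed little, at 256 and 256 CPM against 239.8 and 200.1 CPM, and 3 of the other barcodes held 24.9% and 33.3% of its UMIs there. Platelet barcodes held 3829 and 3172 CPM of Lyz2. The other monocyte genes were scarce, with 3 and 3 UMIs of Csf1r, 25 and 0 of C1qa, 4 and 3 of Ccr2 and 12 and 25 of Cd68 in platelet-positive ECs. The 5 monocyte genes summed to 269 and 263 CPM against 251 and 210.5 CPM. At least 2 of them were detected in 2.28% (1.10–4.16) and 3.23% (1.98–4.94) of platelet-positive ECs against 0.830% (0.624–1.08) and 0.939% (0.704–1.23) of the others. Neutrophil genes summed to 4.59 and 51.9 CPM against 20.1 and 50.4 CPM, with Csf3r and Cxcr2 at 0 in the control. T and NK cell genes summed to 6.73 and 3.49 CPM against 8.20 and 9.58 CPM, with Cd3e at 0 in the metastatic library, and B cell genes to 7.65 and 16.8 CPM against 18 and 31.1 CPM. The part of these cells in the platelet signal was not tested.

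Epithelial genes summed to 149.9 and 135 CPM against 1297 and 1304 CPM. Sftpc, surfactant protein C, was nevertheless detected in 47.7% and 36.9% of platelet-positive ECs and in 43.5% and 37.7% of the others. Of the 5 melanoma genes there were 6 and 4 UMIs in all, with Mlana and Tyr at 0 in both libraries and Tyrp1 and Pmel at 0 in the metastatic one. No rule used the doublet scores, and barcodes with the highest scores made up 27 (6.16%) and 34 (5.48%) of platelet-positive ECs against 5.81% and 5.26% of the others. No barcode sequence was platelet-positive in both libraries, and 0 and 2 platelet-positive ECs shared theirs with a barcode past the filters in the other library.

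Red cell transcripts differed between the libraries. Hbb-bs, a beta globin, stood at 1131 CPM in control platelet-positive ECs against 885 CPM in other endothelial barcodes, and in the metastatic library at 257 against 487 CPM. In the control platelet-positive ECs 3 barcodes held 80.9% of its UMIs. It was detected in 78.1% and 62.7% of platelet-positive ECs and 76.8% and 56.5% of the others. Hba-a1, an alpha globin, was detected in 68.7% and 60.8% against 49.1% and 33.7%, and stood at 3327 and 3141 CPM in platelet barcodes. Hba-a1 and Hba-a2, and also Hbb-bs and Hbb-bt, are near-identical copies, so the split of counts within each pair is uncertain. The erythroid list of 6 genes summed to 2699.5 and 585 CPM against 1813 and 1021 CPM, with none of its genes at 0.

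The metastatic and control platelet-positive ECs were then compared with each other. Of 3804 genes tested, 15 differed more than 2-fold (0.394%), 11 higher (0.289%) and 4 lower (0.105%) in the metastatic library. In other endothelial barcodes 9 of 3801 did (0.237%). Of the 37 platelet genes outside the rule 18 passed the filter, and none of these was past 2-fold. With 0.394% of all genes past it, that count says nothing about the list. The median log2 difference of the 37 was 0.05 where that of all genes was 0.00. Under other settings this median lay between -0.09 and 0.20, so its sign was not fixed. Tubb1 differed by -0.05 (-0.37–0.27), Alox12 by 0.00 (-0.16–0.16) and Gp5 by 0.08 (-0.17–0.33) on the log2 scale. The largest difference among abundant platelet genes was that of Tgfb1, at 0.50 (0.32–0.68), followed by Ptgs1 at -0.46 (-0.59–-0.34), and other endothelial barcodes differed by 0.23 and -0.60 for these genes. The summed level of the 7 rule markers was higher by 0.13 (0.10–0.17), with Pf4 at 0.25 (0.18–0.31) and Clec1b at -0.16 (-0.27–-0.06). More endothelial barcodes were platelet-positive in the metastatic library. The same rule chose the barcodes of both libraries, so it sets their platelet levels in part. The differences in platelet genes are thus a description, and nothing is read from their small size.

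Platelet barcodes, in which Cdh5, Cldn5 and Egfl7 were not detected, were more numerous too. They numbered 5.72 per 100 endothelial barcodes in the control and 12.2 in the metastatic library, a ratio of 2.13 (1.88–2.41), with median depths of 477 and 456.5 UMIs. This ratio and that of the platelet-positive ECs come from the same 2 libraries and are not independent of each other, and what the one owes to the other was not tested.

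Genes of the vessel wall that platelets or leukocytes bind were followed in the same barcodes. Icam1, an adhesion molecule induced by inflammation, stood at 197 and 349 CPM in platelet-positive ECs, a log2 difference between the libraries of 0.83 (0.69–0.96), and at 272 and 365 CPM in other endothelial barcodes, 0.42 (0.39–0.46). It was detected in 51.6% and 57.7% of platelet-positive ECs and 56.7% and 61.6% of the others. Vwf, which tethers platelets through Gp1ba and is stored in platelets as well, stood at 162 and 247 CPM, a difference of 0.60 (0.45–0.75), and at 258 and 271 CPM in the others, 0.07 (0.03–0.11). Over all classes Vwf was lower in platelet-positive ECs, with log2 ratios of -0.67 (-0.80–-0.54) and -0.14 (-0.22–-0.05), but it was detected in more of them, 45.4% and 47.9% against 30.7% and 32%. Within gCap barcodes alone, a comparison added after the data were seen, Vwf was higher in platelet-positive ECs by 0.71 (0.55–0.87) and 0.75 (0.60–0.89). There it differed between the libraries by -0.03 (-0.22–0.17). Platelet barcodes held 712 and 674 CPM of Vwf.

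Sele, E-selectin, had 0 UMIs in the 438 control platelet-positive ECs and 68 UMIs in the metastatic ones, where 3 barcodes held 79.4% of them. Sele was detected in 10 of 620 metastatic platelet-positive ECs (1.61%) and in 0.992% of the others. Selp, the P-selectin of platelets and endothelium, was detected in 3.65% and 4.35% against 1.38% and 1.88%. Vcam1, which binds leukocytes and marks larger vessels, stood at 3.36 and 17 CPM against 53.8 and 73.1 CPM. It was the 1 of the 10 contact genes more than 2-fold lower in platelet-positive ECs among those that passed the filter, in each library, where 0.158% and 0.21% of all genes were. Between libraries the 10 contact genes summed to a log2 difference of 0.39 (0.33–0.45) in platelet-positive ECs and 0.25 (0.23–0.26) in the others. Whether the difference between libraries was itself unlike in platelet-positive and other barcodes was not tested.

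The hemostasis genes of the endothelium numbered 10, among them genes that restrain clotting. Thbd, thrombomodulin, which turns thrombin into an anticoagulant, differed between the libraries by -0.36 (-0.42–-0.29) in platelet-positive ECs and -0.39 (-0.41–-0.38) in the others, the metastatic library being lower. Entpd1, which degrades ADP, differed by 0.11 (-0.05–0.28) and 0.13 (0.08–0.18), and Tfpi, the inhibitor of tissue factor, by 0.15 (-0.18–0.48) and 0.03 (-0.06–0.13). The 10 genes summed to -0.17 (-0.22–-0.11) and -0.23 (-0.25–-0.22), set by the abundant Thbd, while their medians were above 0, at 0.29 and 0.13.

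The genes of the reactive capillary (rCap) state had been picked by the authors with these libraries among their data and are no independent evidence of direction. All 7 had log2 differences above 0, metastatic over control, in both kinds of barcode. Of the 5 that passed the filter, none was more than 2-fold higher in platelet-positive ECs. Only 0.289% of all genes tested were, so that count says nothing about the list. Inhbb, an activin subunit, stood at 3.98 and 44.3 CPM in platelet-positive ECs, a difference of 3.48 (2.67–4.41), and at 4.59 and 26.4 CPM in the others, 2.52 (2.31–2.75). It was detected in 2.05% and 7.42% of platelet-positive ECs against 1.98% and 6.61% of the others, while 3 barcodes held 32.5% of its UMIs in the metastatic platelet-positive ECs. Bcl3, an NF-kB partner, differed by 1.26 (0.80–1.74) and 1.43 (1.30–1.56), and Tmem252 by 0.83 (0.65–1.02) and 0.34 (0.29–0.39). Pim3, a serine/threonine kinase, differed by 0.10 (-0.04–0.23) and 0.10 (0.06–0.13). The 7 summed to 0.43 (0.35–0.51) in platelet-positive ECs and 0.28 (0.25–0.30) in the others.

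The 8 NF-kB targets summed to 0.10 (0.04–0.15) in platelet-positive ECs and -0.03 (-0.04–-0.01) in the others, sums led by Nfkbia, the inhibitor of NF-kB, at 1178 and 1213 CPM in platelet-positive ECs. The median log2 difference was 1.10 in platelet-positive ECs, where the 6 genes with UMIs in both libraries were all above 0, and 0.60 in the others, where 7 of 8 were. Only 1 of the 8 passed the filter on low values, so the counts of genes above 0 are a description and nothing is read from them. Tnfaip3, which ends NF-kB signaling, was detected in 4.11% and 10.0% of platelet-positive ECs against 5.45% and 9.60% of the others, and Nfkb2 in 6.39% and 12.9% against 7.44% and 13.2%. The share of barcodes with Inhbb, Tnfaip3 or Nfkb2 was thus close between platelet-positive ECs and the other endothelial barcodes of the same library. The chemokines Cxcl1 and Ccl2 had 1 and 16 and 0 and 1 UMIs, and Csf3 none.

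Without any list, the highest genes in the metastatic over the control platelet-positive ECs included Mt1, Mgp, Akap12, Hbegf and Pdgfa. Mt1, a metallothionein, stood at 14.4 and 171 CPM, a log2 difference of 3.57 (3.15–4.03) against 0.83 in other endothelial barcodes, with 43.8% of its metastatic UMIs in 3 barcodes. Akap12, a kinase anchor protein, stood at 221 and 732 CPM, 1.73 (1.61–1.85) against 1.00, and was detected in 62.6% and 72.1% of platelet-positive ECs against 60% and 68.6% of the others. Hbegf and Pdgfa, growth factors that endothelium secretes, differed by 1.67 (1.37–1.97) and 1.59 (1.26–1.93), against 1.23 and 1.40. The lowest were the 4 globins Hbb-bs, Hbb-bt, Hba-a1 and Hba-a2, with differences from -3.12 (Hbb-bt) to -1.85 (Hba-a1). After them came Chrm2, a muscarinic receptor, at -0.98 (-1.23–-0.74) and Zbtb16, a transcription factor induced by glucocorticoids, at -0.97 (-1.08–-0.85), against -0.90 and -1.34 in the others.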

How the data were processed

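The 2 libraries were read from UMI count matrices deposited by the authors, who had made them with Cell Ranger on mm10 (the file header gives version 3.1.0). The counts were raw and were used as deposited, with no pooling of libraries. All barcodes passing the rule were kept, also those with a high Scrublet doublet score (scanpy 1.11.5, the top 0.8% per 1000 barcodes), because a barcode with RNA of several cells was what was studied. UMIs were summed over barcodes of a kind and divided by their total (Python 3.11.15, numpy 2.4.6, scipy 1.17.1). Intervals were Clopper-Pearson for shares, Poisson for CPM and conditional binomial for ratios. The filter for counting genes past 2-fold was at least 50 CPM in either sum and 20 UMIs. Genes named were those of the lists, and outside them the 12 highest and 6 lowest by the log2 ratio that held in both libraries, and for the metastatic over control comparison the 6 highest and 6 lowest among genes with at least 100 UMIs. A symbol with more than 1 identifier was left out of the lists (1 gene). TMM factors of edgeR 4.0.16 served as another scaling. Code was tested on simulated data. The members and the gene lists were chosen with earlier results of these data known. A few genes that these rules take in are not reported here, though they are part of the list sums and medians.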

Additional observations from a re-analysis of the deposited data

Results flagged for a closer look

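The 4 globin genes stood out because their summed level in platelet-positive ECs was above that of other endothelial barcodes in the control library and below it in the metastatic one. The log2 ratio in the metastatic minus that in the control library was -1.27 for Hbb-bs (0.35 in the control, -0.92 in the metastatic library), -2.29 for Hbb-bt (0.79 and -1.50), -1.06 for Hba-a1 (0.90 and -0.15) and -1.93 for Hba-a2 (0.51 and -1.41). The difference was not tested. Detection did not reverse. At least 2 of the 6 erythroid genes were detected in 74.7% and 61.3% of platelet-positive ECs, against 66.3% and 39.7% of other endothelial barcodes. In control platelet-positive ECs 3 barcodes held 80.9% of the Hbb-bs, 84.7% of the Hbb-bt, 71.5% of the Hba-a1 and 84.7% of the Hba-a2 UMIs. As near-identical copies, the genes of each pair are not independent of each other.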

How the results depend on the processing

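Leaving aside the share of platelet-positive ECs in each library, 92 values of 20 results were computed under other settings, of which 21 moved beyond the limits set for the reported value. The shares themselves (6.31% and 9.90%) were 9.63% and 14.5% with a minimum of 2 markers, 4.15% and 7.09% with 4, and 2.85% and 5.01% with 5. They were 6.94% and 11.2% with 300 to 5000 genes, 3.44% and 5.86% with Pf4 and Ppbp not counted, and 2.78% and 5.20% after thinning, the metastatic share being higher each time. No paired analysis was possible because each group was 1 library, and for the same reason no library could be left out. With a minimum of 2 platelet markers the platelet genes outside the rule had a median log2 ratio of 3.67 in the control, and the endothelial genes ratios of -0.060 and -0.091. With a minimum of 5 the platelet medians were 5.23 and 4.80, the endothelial ratios -0.15 and -0.17, and between libraries the rCap genes summed to 0.24 and the hemostasis genes to -0.26. With 300 to 5000 genes the endothelial ratios were -0.11 and -0.15 and the metastatic platelet median 4.82, and with 1500 to 5000 genes the metastatic endothelial ratio was -0.10. Leaving out the highest doublet scores gave -0.13 there, and TMM scaling -0.047 and -0.082. Thinning moved the ratio of the shares to 1.87. In platelet barcodes of at least 500 UMIs Pf4 gave 30.3% in the metastatic library. Within gCap barcodes, an alternative chosen after seeing the data, the rCap sum was 0.52, the contact sum 0.30 and the metastatic endothelial ratio -0.13. Leaving out barcodes with at most 5 endothelial UMIs, also chosen after seeing the data, gave a ratio of the shares of 1.58, platelet medians of 4.04 and 4.34 and endothelial ratios of -0.084 and -0.12. The median difference of the platelet genes between the libraries (0.05) had no fixed sign, from -0.09 with a minimum of 5 markers to 0.20 without those barcodes. Why these values moved was not tested.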

Other observations

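Genes of dividing cells and of fibroblasts and mural cells were scarce in platelet-positive ECs. The 5 proliferation genes summed to 4.59 and 22.9 CPM against 8.41 and 8.69 CPM in other endothelial barcodes, and in the metastatic library 3 barcodes held 84.8% of the UMIs of Top2a, a topoisomerase of dividing cells. The 5 mesenchymal genes, among them Col1a1, Col1a2 and Pdgfrb, summed to 17.1 and 18.8 CPM against 17.7 and 20.5 CPM. S100a8, an alarmin of neutrophils, had 2 and 100 UMIs in platelet-positive ECs, 93 of the latter in 1 barcode. Flt4, the VEGF receptor that is strongest in lymphatic vessels, stood at 52.3 and 49.5 CPM against 49.2 and 43.7 CPM.

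Platelet markers were also present in the few barcodes of other cell classes. Of barcodes with monocyte and macrophage markers 2 of 19 in the control (10.5%, 1.30–33.1) and 0 of 19 in the metastatic library (0–17.6) had 3 platelet markers, and of epithelial barcodes 1 of 7 (14.3%, 0.361–57.9) and 3 of 9 (33.3%, 7.49–70.1). These numbers are too small to set them apart from the endothelial shares.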
